A study of Mus musculus with 3 samples.

Results

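Immune checkpoint receptors and their ligands are described here in single cells from mouse glomeruli. The 10 genes were taken by symbol from the 32285 genes in the files, and all 10 were found. Of these, 7 encode receptors. Pdcd1 (PD-1), Ctla4, Lag3, Havcr2 (TIM-3) and Tigit are inhibitory, and Icos and Tnfrsf9 (4-1BB) are costimulatory. The other 3 encode ligands, Cd274 (PD-L1), Pdcd1lg2 (PD-L2) and Lgals9 (galectin-9).

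Checkpoint receptors appear on lymphocytes after activation, and their ligands on antigen-presenting cells and on tissue cells set how strongly an activated T cell can act. PD-L1 is carried by many cell types and is raised by interferon gamma, whereas PD-L2 is mostly found on myeloid cells. TIM-3 is found on activated T cells and on myeloid cells, and galectin-9 has been described as one of its ligands.

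The study addressed lupus nephritis and its treatment with mesenchymal stem cells from human umbilical cord (hUC-MSCs), and glomeruli were isolated from kidneys digested with collagenase V and dissociated to single cells. There was 1 droplet library for control mice, 1 for untreated MRL/lpr mice and 1 for MRL/lpr mice given hUC-MSCs. MRL/lpr mice carry the lpr mutation of Fas and develop lupus spontaneously; the methods describe them as female and as entering the model group at about 16 weeks, when proteinuria rose. Treated mice received 800000 hUC-MSCs by tail vein, and the single-cell data of treated and untreated mice are given as 21 days. MRL/MpJ mice are the control strain named for other experiments of the study. The strain and age of the control mice of this experiment and the number of mice behind each library are not stated, so strain, disease and library cannot be told apart. The level of Fas itself does not mark the lpr mutation in these counts, since in T cell-like cells it was 98.5 CPM (counts-per-million, UMIs of the gene scaled to all UMIs of the class) in control, 171 in untreated and 108 in treated mice.

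Values count unique molecular identifiers (UMIs), that is single RNA molecules. Barcodes with at least 500 UMIs and at most 10% mitochondrial UMIs were kept, which gave 11473 in control, 17638 in untreated and 21821 in treated mice, with medians of 4939, 2989.5 and 2024 UMIs. Libraries shared 54 to 99 kept barcodes by pair, which was under 0.6% of either library. After 3260 likely doublets were removed, 47672 cells fell into 28 clusters, which were named from marker genes. T cell-like cells numbered 113 in control, 933 in untreated and 692 in treated mice, and NK cell-like cells 63, 132 and 111. Mononuclear phagocyte-like cells, which join the monocyte-like and macrophage-like clusters, numbered 145, 2597 and 8299 (the treated number was 3611 to 6266 with other filters, clustering or a marker gate), and endothelial-like cells 6024, 4014 and 5537. All 12 T cell markers had UMIs in the T cell-like cells of each library, with a sum of 6234, 6212 and 6672 CPM, and all 10 endothelial markers in the endothelial-like cells.

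Levels are given as CPM of a class in 1 library. Their 95% intervals are exact Poisson intervals and those of ratios between libraries are exact conditional binomial intervals. Both cover counting error only. With 1 library for each condition no test between conditions was possible, and a ratio compares libraries. A gene was compared at 20 or more UMIs over both libraries, with the exception of Havcr2 within T cell groups, and a ratio of 2-fold or more in either direction is read against the share of all genes in that class that were as far apart.

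The promoters of the ligands that glomerular cells carried are shown because both ligands differed between libraries in endothelial-like cells and in different directions. The 250 bases before the RefSeq start of Cd274 (GRCm38.p6, chr19:29367188-29367437, plus strand) and of Lgals9 (chr11:78984925-78985174, minus strand) were searched on both strands for the core of the interferon-stimulated response element (GAAA, NN, GAAA) and of the gamma-activated site (TTCNNNGAA), and a match is set in capitals.
Cd274: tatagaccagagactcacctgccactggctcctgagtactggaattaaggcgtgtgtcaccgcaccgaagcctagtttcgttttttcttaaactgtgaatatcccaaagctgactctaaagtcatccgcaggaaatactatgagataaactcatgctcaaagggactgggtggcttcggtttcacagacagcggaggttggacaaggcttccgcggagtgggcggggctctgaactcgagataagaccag
Lgals9: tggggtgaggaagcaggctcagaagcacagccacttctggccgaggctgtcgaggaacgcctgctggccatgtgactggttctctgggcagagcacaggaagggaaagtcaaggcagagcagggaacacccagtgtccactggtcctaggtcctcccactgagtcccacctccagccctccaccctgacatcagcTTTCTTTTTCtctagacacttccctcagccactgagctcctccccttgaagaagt
Lgals9 held the first motif on the opposite strand, from base -55 to base -46 counted from its start, and Cd274 held neither in this window. Of 32851 windows of this length, 2.98% held the first motif and 7.02% the second. Windows were found for 8 of the 10 genes, and Tnfrsf9 was the other one with a match, to the second motif. In GENCODE M21 (GRCm38), Cd274 lies on chromosome 19 from 29367455 to 29388095 and Pdcd1lg2 beside it on the same strand from 29410919 to 29471161. Ctla4 (60887000 to 60915832) and Icos (60977927 to 61000320) are neighbours on the plus strand of chromosome 1, and Pdcd1 lies on the minus strand of the same chromosome from 94038305 to 94052553.

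Some of the receptors divided by cell class. Of all Pdcd1 UMIs in cells, 97.2% lay in T cell-like cells in control, 77.6% in untreated and 83.9% in treated mice. The shares of Icos in these cells were 67.0%, 72.8% and 67.0%, and those of Ctla4 58.3%, 74.4% and 60.6%. Lag3 and Tnfrsf9 were spread more widely. In T cell-like cells lay 10.6%, 49.1% and 39.0% of Lag3 and 14.3%, 43.0% and 50.4% of Tnfrsf9 UMIs, and in control mice 67.1% of Lag3 lay in endothelial-like and 41.3% of Tnfrsf9 in mesangial-like cells. The control levels of Lag3 and Tnfrsf9 in those 2 classes were low, at 3.53 and 3.82 CPM, against 41.9 and 44.3 CPM in T cell-like cells. Havcr2 instead lay in mononuclear phagocyte-like cells, with 84.6%, 84.5% and 79.6% of its UMIs, and so did Pdcd1lg2, with 48.0%, 78.1% and 81.8%. Cd274 and Lgals9 were carried mainly by endothelial-like cells in control mice, with 79.2% and 74.8% of their UMIs. In untreated mice 39.7% of Cd274 UMIs lay in endothelial-like and 32.8% in phagocyte-like cells, and in treated mice 31.6% and 48.9%. These shares follow how many cells of each class a library held and how deep they were, as well as the level in each cell.

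**Figure D1:**
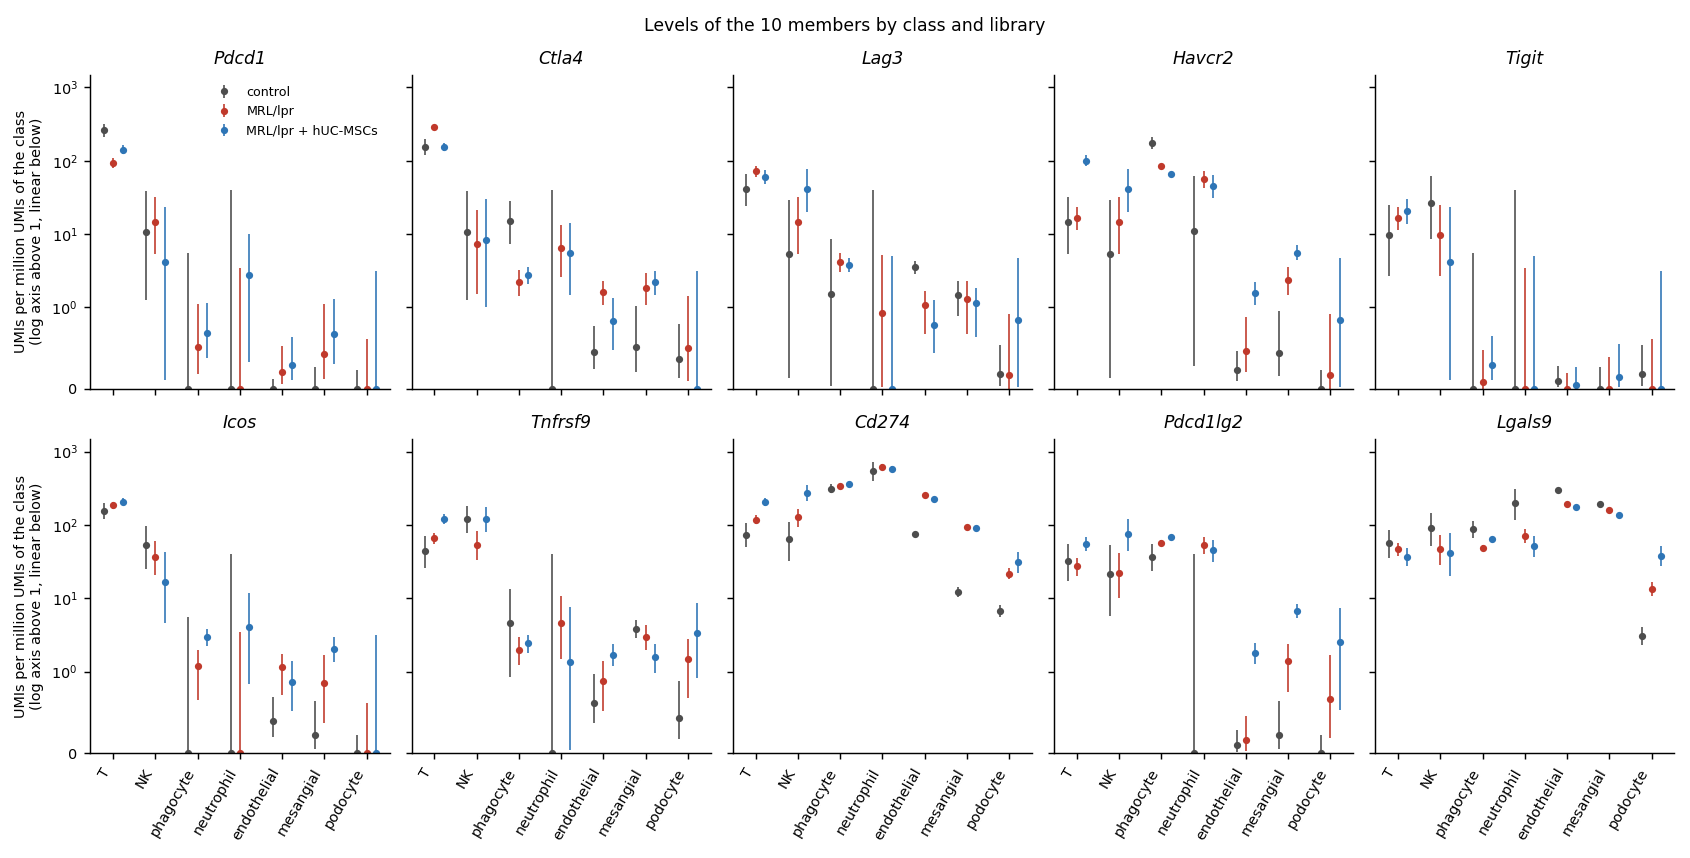
Level of each of the 10 genes (CPM of the class, log axis above 1 and linear below) in 7 classes and 3 libraries, with bars for exact Poisson 95% intervals that cover counting error only. Pdcd1, Ctla4 and Icos are highest in T cell-like cells, Havcr2 in phagocyte-like cells of control and untreated mice, and Cd274 in neutrophil-like cells.

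PD-1, the receptor that dampens signals from the T cell receptor, was lower in T cell-like cells of both MRL/lpr libraries than in control. Pdcd1 had 261 CPM in control (95% interval 214 to 316; 106 UMIs), 92.6 in untreated (79.3 to 107; 173 UMIs) and 141 in treated mice (122 to 163; 198 UMIs). The log2 ratio of untreated over control mice was -1.49 (-1.85 to -1.13) and of treated over untreated mice 0.61 (0.31 to 0.91). Over all T cell-like cells the intervals of the 3 libraries did not overlap. Control rested on 36 of 113 cells, and 1 of them held 21 of the 106 UMIs. In cells with no UMI of 18 macrophage and neutrophil markers, Pdcd1 was at 208 (164 to 261), 95.5 (79.3 to 114) and 141 CPM (116 to 170). There the intervals of control and treated mice overlapped. Pdcd1 was seen in 31.9% of control, 14.1% of untreated and 18.8% of treated T cell-like cells at median depths of 2623, 1642 and 1525 UMIs, and after each cell was thinned to 500 UMIs in 14.2%, 4.18% and 6.21%. Podocyte-like cells, which should lack it, held no Pdcd1 UMI in any library at medians of 6692, 7276 and 6874 UMIs. Empty droplets, those with 1 to 100 UMIs that sample free RNA, held 1.09, 3.12 and 3.84 CPM. Of the other receptors, podocyte-like cells held no Icos UMI, 6, 3 and 0 UMIs of Ctla4 and 0, 1 and 1 of Havcr2.

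CTLA-4 competes with CD28 for the costimulatory ligands CD80 and CD86. It differed the other way from PD-1. Ctla4 was at 155 CPM (119 to 198) in control, 287 (263 to 312) in untreated and 155 (135 to 177) in treated mice, from 63, 536 and 217 UMIs. Its log2 ratio was 0.89 (0.51 to 1.29) for untreated over control and -0.89 (-1.12 to -0.66) for treated over untreated mice, so that the treated library stood at the control level. Where barcodes were limited to 200 to 3000 genes the second ratio was -0.34, and without doublet removal -0.56. After thinning, the shares of T cell-like cells with Ctla4 were 6.19%, 14.9% and 6.65%, against unthinned shares of 32.7%, 33.9% and 21.5%.

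Of the other inhibitory receptors, LAG-3, which binds MHC class II, was at 41.9, 71.7 and 60.7 CPM from 17, 134 and 85 UMIs. The interval of untreated over control just excluded 0 (log2 0.78, 0.04 to 1.60) and that of treated over untreated mice did not (-0.24, -0.65 to 0.16). Tigit, the receptor for Pvr and Nectin proteins, had 4, 31 and 29 UMIs, and neither ratio had an interval that excluded 0. At this depth a difference in Tigit was not detectable.

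Among the 10 genes TIM-3 had the largest ratio between treated and untreated T cell-like cells. Havcr2 was at 14.8 CPM (5.42 to 32.2; 6 UMIs) in control, 16.6 (11.3 to 23.6; 31 UMIs) in untreated and 101 (84.8 to 119; 141 UMIs) in treated T cell-like cells. The log2 ratio of treated over untreated mice was 2.60 (2.03 to 3.21), and it was 2.33 to 3.31 under the other settings. Cells with a UMI made up 5.31%, 2.79% and 13.3% unthinned and 0.885%, 1.07% and 3.03% after thinning. Because phagocyte-like cells carry Havcr2 too, the macrophage markers were summed in T cell-like cells, and they came to 14.8, 132 and 217 CPM. Empty droplets held 2.64, 13.2 and 22.4 CPM of Havcr2. Among the T cell-like cells with no UMI of 18 macrophage and neutrophil markers (106, 646 and 383 cells), Havcr2 was at 13.7, 11.7 and 116 CPM, which gave the highest of those ratios. In the treated library Havcr2 was higher in T cell-like (101 CPM) than over all phagocyte-like cells (66.3 CPM), where it was 175 and 85.5 CPM in control and untreated mice. The phagocyte cluster marked by Clec4e was at 113 CPM in treated mice and the shallow one marked by Trem2, with 4065 of the 8299 cells, at 43.7 CPM.

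ICOS and 4-1BB sustain activated T cells. Icos was at 155 (119 to 198), 185 (166 to 206) and 209 (185 to 234) CPM from 63, 346 and 292 UMIs, and neither ratio had an interval that excluded 0 (log2 0.26, -0.13 to 0.67, and 0.17, -0.06 to 0.40). Tnfrsf9 was at 44.3 (26.3 to 70.0), 65.8 (54.7 to 78.6) and 122 (105 to 142) CPM from 18, 123 and 171 UMIs. Its ratio was 0.89 (0.55 to 1.24) for treated over untreated and 0.57 (-0.15 to 1.37) for untreated over control mice. In neither T cell group with at least 20 cells of both MRL/lpr libraries, described below by marker genes, was the first of these ratios above 0 (-0.02, -1.05 to 1.1, and -1.55, -6.90 to 1.03).

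The ligands had UMIs in T cell-like cells as well. Cd274 was at 73.9 (49.8 to 105), 118 (103 to 135) and 207 (184 to 232) CPM, and the log2 ratios were 0.68 (0.13 to 1.28) and 0.81 (0.55 to 1.07), the second 0.38 without doublet removal. Empty droplets held 19.1, 122 and 139.9 CPM of Cd274. Pdcd1lg2 was at 32.0, 27.3 and 55.7 CPM from 13, 51 and 78 UMIs and was 1.03 higher on the log2 scale (0.50 to 1.57) in treated than in untreated mice. Lgals9 was at 56.6, 46.6 and 37.1 CPM, below its level in empty droplets in every library (121, 86.8 and 109 CPM). Free RNA was estimated at 6.86%, 19.9% and 15.7% of the UMIs of T cell-like cells.

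Of the 10 genes, 1 (Pdcd1) was 2-fold or more apart between untreated and control T cell-like cells, where 20.1% of 8949 genes were. Between treated and untreated mice 2 (Havcr2 and Pdcd1lg2) were, where 12.9% of 9970 genes were, so neither number stood far from that of all genes. The median log2 ratio over all genes was 0.04 and -0.18, and over the 10 genes 0.41 and 0.47. The 7 receptors together came to 682 CPM in control (604 to 767), 736 in untreated (697 to 776) and 809 CPM in treated mice (763 to 858). The order of control and untreated mice turned without doublet removal (461, 455 and 591 CPM), at 1000 UMIs (583, 563 and 715) and at 200 to 3000 genes (637, 601 and 779).

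**Figure D2:**
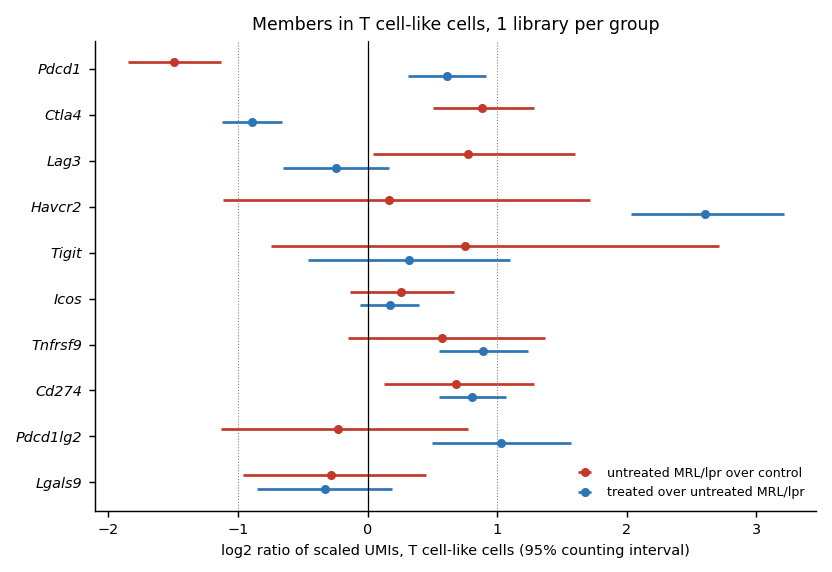
Log2 ratios of the 10 genes in T cell-like cells, untreated MRL/lpr over control (red) and treated over untreated MRL/lpr (blue), with 95% counting intervals and dotted lines at 2-fold. Pdcd1 lies at -1.49 and 0.61, Ctla4 at 0.89 and -0.89, and Havcr2 at 0.17 and 2.60.

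T cell-like cells of the 3 libraries were not of the same kinds. Lymphocytes were clustered again into 11 groups, and most of these came mainly from 1 library. In a Cd8b1-rich group with 57 control and 65 untreated cells, Pdcd1 had 42 UMIs in control and 1 in untreated mice (260 and 4.03 CPM; log2 ratio -6.01, -11.35 to -3.46). Ctla4 was at 92.8 and 28.2 CPM there (-1.72, -3.26 to -0.34), opposite in sign to its ratio over all T cell-like cells. In a group with 23 control and 290 untreated cells, Pdcd1 was at 257 and 109 CPM (log2 ratio -1.24, -2.11 to -0.28) and Ctla4 at 294 and 526 CPM (0.84, 0.11 to 1.67). Within both groups that had at least 20 cells of each of these libraries, Pdcd1 was thus lower in untreated mice, while Ctla4 was lower in one and higher in the other.

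Treated and untreated mice shared a group marked by Tnfrsf4, Icos and Cd40lg, with 54 untreated and 186 treated cells. There Ctla4 was 457 and 237 CPM (log2 ratio -0.95, -1.44 to -0.45) and Icos 665 and 368 CPM (-0.86, -1.25 to -0.45), while Cd274 was 229 and 389 CPM (0.77, 0.21 to 1.37). Havcr2 had 4 and 15 UMIs there (27.7 and 45.6 CPM; 0.72, -0.93 to 2.77), and Tnfrsf9 was at 83.2 and 82.1 CPM. For Pdcd1 the ratio was 0.37 (-0.45 to 1.25) in this group. The Havcr2 UMIs of treated mice lay mostly in a group marked by Ccl5, Nkg7 and Ifng, with 75 of 141 UMIs at 140 CPM in 292 treated cells, and in proliferating cells marked by Birc5 and Top2a, with 38 UMIs at 163 CPM in 42 cells. The first of these groups held no control cells and 18 untreated cells, which had 4 Havcr2 UMIs (94.2 CPM, 25.7 to 241; log2 ratio 0.57, -0.85 to 2.48). The 14 untreated proliferating cells held none (0 to 36.2 CPM). A group of 228 untreated cells marked by Ccl5, Nkg7 and Klrc1 held 22 of the 31 untreated Havcr2 UMIs (47.3 CPM), and the 26 treated cells of this group had 3 UMIs (70.3 CPM; log2 ratio 0.57, -1.81 to 2.31). Pdcd1 had a ratio of 0.42 (-0.96 to 1.56) there, so its difference of 0.61 over all T cell-like cells was not detectable within either group. Havcr2 was higher in treated mice in each of the groups named here, and the groups differed in whether the interval excluded 0. In the 3 groups with Havcr2 UMIs in both MRL/lpr libraries a difference was not detectable at these counts, while in the proliferating cells and in a small group marked by Gzmb, with 9 UMIs in 20 treated and none in 10 untreated cells, the lower limits of the log2 ratio were 2.10 and 0.02.

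By detected coreceptor, most MRL/lpr T cell-like cells had a UMI of neither Cd4 nor Cd8. These were 691 (74.1%) of untreated and 502 (72.5%) of treated cells, against 47 (41.6%) in control. MRL/lpr mice are known for T cells that lack both coreceptors, but at medians of 1466 and 1455 UMIs a missing UMI does not show a missing coreceptor. In these cells Ctla4 was at 143, 372 and 173 CPM, and Havcr2 had 0 UMIs in control (up to 31.0 CPM), 8 in untreated (6.76 CPM) and 105 in treated mice (105 CPM). Tnfrsf9 was at 33.6, 65.9 and 144 CPM and Pdcd1 at 193, 98.0 and 164 CPM.

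In cells with Cd8 and without Cd4 UMIs (58, 193 and 115 cells) Pdcd1 was at 292, 76.0 and 62.2 CPM, and Ctla4 at 142, 90.8 and 49.8 CPM. Havcr2 was at 18.7, 27.8 and 99.5 CPM, so the treated level was the highest in these cells too. Cells with Cd4 and without Cd8 or Foxp3 UMIs numbered 47 in untreated and 75 in treated mice, and Icos was highest there, at 552 (433 to 694) and 283 (206 to 379) CPM.

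**Figure D3:**
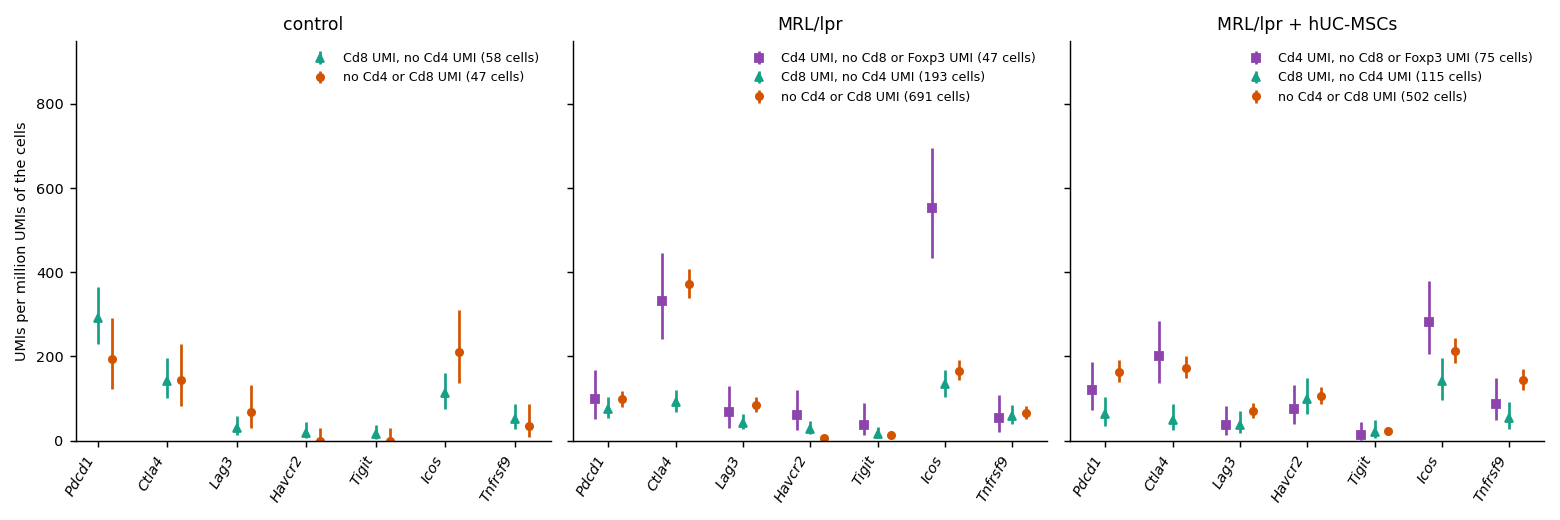
Level of the 7 receptors (CPM of the cells) in T cell-like cells grouped by UMIs of Cd4 and Cd8, with 1 panel for each library and bars for 95% counting intervals; groups under 20 cells are left out. Ctla4 is highest in untreated cells without Cd4 or Cd8 UMIs (372) and in those with Cd4 (333), and Havcr2 is near 100 in treated cells with Cd8 UMIs and in those with neither.

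Detection of several receptors in 1 cell depended on depth. In treated mice Havcr2 was found in 30% of the 130 T cell-like cells with Pdcd1 (22.3% to 38.7%) and in 9.43% of those without (7.14% to 12.2%). For Tnfrsf9 the shares were 32.3% and 10.1%, and for Lag3 23.1% and 7.65%. Cells in which more UMIs were counted show more of every gene, and after thinning the shares of Havcr2 were 6.98% of 43 cells and 2.77% of 649, with overlapping intervals (1.46% to 19.1% and 1.65% to 4.35%). Cells with 3 or more of the 7 receptors made up 18.6%, 8.47% and 12.7% unthinned and 0.885%, 0.643% and 1.01% thinned, and cells with none 70.8%, 69.9% and 71.1% thinned.

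In NK cell-like cells Tnfrsf9, Cd274 and Lgals9 had enough UMIs to compare in both comparisons. Tnfrsf9 was at 122, 54.0 and 121 CPM from 23, 22 and 29 UMIs, with log2 ratios of -1.17 (-2.08 to -0.26) and 1.17 (0.32 to 2.04). Cd274 was at 63.5, 128 and 276 CPM from 12, 52 and 66 UMIs and Pdcd1lg2 at 21.2, 22.1 and 75.4 CPM from 4, 9 and 18 UMIs. Treated over untreated ratios were 1.11 (0.57 to 1.67) for Cd274 and 1.77 (0.54 to 3.11) for Pdcd1lg2. Most Pdcd1lg2 UMIs, 8 in untreated and 14 in treated mice, lay in cells with a UMI of 18 macrophage and neutrophil markers. The 77 untreated and 41 treated cells without such a UMI held 1 and 4 Pdcd1lg2 UMIs. Cd274 was at 128 (84.4 to 186) and 265 CPM (166 to 402) in them, with overlapping intervals. Of 4 genes compared, 2 were 2-fold or more apart between untreated and control mice, where 20.8% of all genes were, and 3 between treated and untreated mice, where 8.72% were. Lgals9 was at 90.0, 46.7 and 41.9 CPM from 17, 19 and 10 UMIs, and neither ratio had an interval that excluded 0 (-0.95, -1.97 to 0.09, and -0.16, -1.42 to 1.02). The 10 dendritic cell markers summed to 667, 862 and 2813 CPM in the same cells, and the 12 T cell markers to 535, 1081 and 971 CPM. The main group of these cells (62, 120 and 100 by library) had T cell marker UMIs in 64.2% and NK cell marker UMIs in 97.5%. A small group (1, 12 and 11 by library) had T cell marker UMIs in 87.5% and NK cell marker UMIs in 37.5%. The part of these markers and of this group in the ratios was not tested. Pdcd1 had 2, 6 and 1 UMIs and Ctla4 2, 3 and 2, too few for a comparison.

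PD-L1 was higher in endothelial-like cells of both MRL/lpr libraries than of control. Cd274 was at 76.5 CPM in control (2340 UMIs), 253 in untreated (4885 UMIs) and 230 in treated endothelial-like cells (4707 UMIs). The log2 ratio of untreated over control mice was 1.73 (1.66 to 1.80) and of treated over untreated mice -0.14 (-0.20 to -0.08). Cells with a UMI made up 21.5%, 47.4% and 34.3% at median depths of 4249, 3790.5 and 2731 UMIs, and 3.14%, 10.6% and 8.83% after thinning. Podocyte-like cells, deeper in each library, held 6.70, 21.7 and 31.5 CPM with thinned shares of 0.516%, 1.39% and 2.61%. Free RNA was estimated at 3.88%, 9.22% and 8.47% of endothelial UMIs, and after it was subtracted the first ratio was 1.68.

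Within endothelial clusters Cd274 of treated mice was not below that of untreated mice. The endothelial-like cells made up 5 clusters, numbered here as the clustering gave them. Clusters 3 and 4 held most control cells (3563 and 1966), cluster 12 most untreated cells (3156), and clusters 5 and 13 most treated cells (2559 and 2545). Cd274 was higher in untreated than in control mice in each, with log2 ratios of 1.45, 1.83, 2.19, 1.37 and 1.30 for clusters 3, 4, 5, 12 and 13 and intervals above 0. Treated over untreated mice the ratios were 0.16, 0.64, 0.22, 0.10 and 1.45, with intervals above 0 in clusters 4, 5 and 13. In cluster 13 Cd274 was lowest in each library, at 19.8, 48.7 and 133 CPM, below empty droplets in both MRL/lpr libraries (122 and 139.9 CPM), and this cluster held 2545 of the 5537 treated cells but 155 of the 4014 untreated cells. In cluster 12 it was 103, 264 and 284 CPM. The class ratio of -0.14 thus had the opposite sign to the ratios of all 5 clusters.

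**Figure D4:**
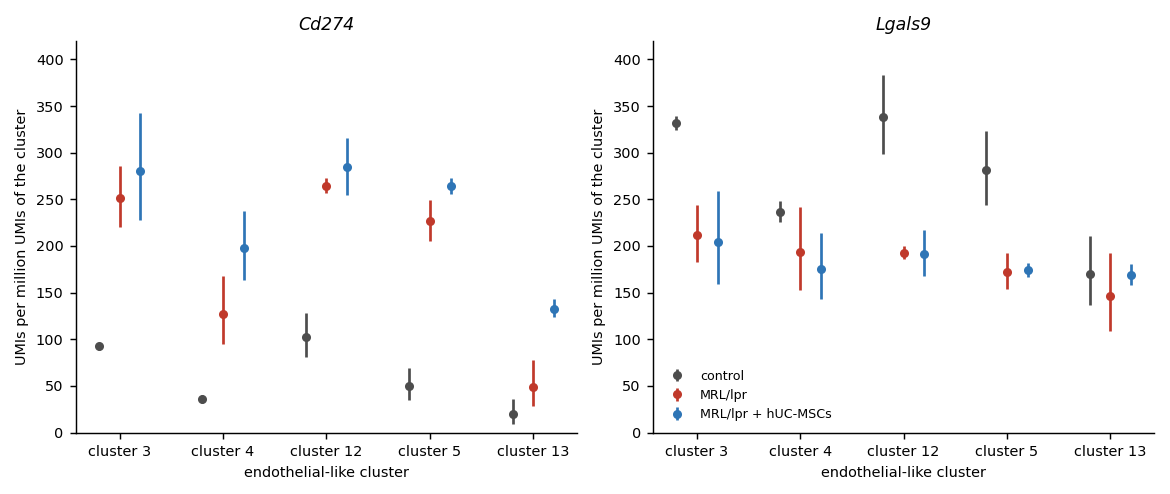
Levels of Cd274 and Lgals9 (CPM of the cluster) in the 5 endothelial-like clusters of the 3 libraries, with 95% counting intervals. Cd274 is higher in both MRL/lpr libraries than in control in each cluster, while Lgals9 is lower or overlaps.

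Galectin-9 differed in the other direction. Lgals9 was at 305 CPM in control (9320 UMIs), 191 in untreated (3680 UMIs) and 174 in treated mice (3570 UMIs), with log2 ratios of -0.67 (-0.73 to -0.62) and -0.13 (-0.20 to -0.07). Thinned shares were 13.6%, 8.74% and 8.05%, and unthinned shares 67.0%, 52.9% and 40.3%. Untreated over control ratios within clusters 3, 5 and 12 were -0.65, -0.71 and -0.81 with intervals below 0, and those of clusters 4 and 13 were -0.29 and -0.22 with intervals that held 0. Podocyte-like cells held 3.07, 13.6 and 38.3 CPM, all below empty droplets (121, 86.8 and 109).

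Lymphocyte receptors were near 0 in endothelial-like cells, with the exception of Lag3 in control mice. Lag3 had 108 UMIs (3.53 CPM) in control, 21 (1.09) in untreated and 16 (0.78) in treated mice, a log2 ratio of -1.70 (-2.45 to -1.01) for untreated over control. Within clusters 3, 4 and 12 this ratio was -1.76 (-7.09 to 0.76), 1.32 (-1.06 to 3.05) and -2.62 (-4.12 to -0.83). Empty droplets held 1.71, 3.82 and 6.4 CPM of Lag3. T cell markers summed to 1.5, 6.90 and 6.98 CPM in these cells. Of 6 genes compared between untreated and control mice, 4 were 2-fold or more apart (Cd274, Ctla4 and Icos higher, Lag3 lower), where 16.7% of all genes were, but Ctla4 and Icos had 31 and 22 UMIs in untreated mice and stood below the level in empty droplets (8.33 and 8.68 CPM). Between treated and untreated mice 2 of 8 were, Havcr2 (1.74, from 9 and 32 UMIs) and Pdcd1lg2 (3.54, from 3 and 37 UMIs), where 11.0% of all genes were. Both were below empty droplets, and macrophage markers summed to 82.7 and 136 CPM in the same cells, whose part in these ratios was not tested. The median log2 ratio over all endothelial genes was 0.02 and 0.15.

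Mesangial-like cells, the pericytes of the glomerular tuft, had the same order of libraries in summed UMIs. Cd274 was at 12.1 CPM in control (165 UMIs), 93.4 in untreated (866 UMIs) and 90.3 in treated mice (1196 UMIs), a log2 ratio of 2.94 (2.70 to 3.19) for untreated over control and -0.05 (-0.18 to 0.08) for treated over untreated mice. Between untreated and control mice 3 of 6 genes were 2-fold or more apart (Cd274, Ctla4 and Havcr2), where 19.1% of all genes were. Between treated and untreated mice 3 of 8 were (Havcr2, Icos and Pdcd1lg2), where 10.6% were. These 3 were below empty droplets in both libraries. Untreated and treated levels were 2.37 and 5.59 CPM of Havcr2, 0.86 and 2.04 of Icos and 1.40 and 6.72 of Pdcd1lg2. Empty droplets held 13.2 and 22.4, 8.68 and 6.4, and 11.8 and 25.3 CPM of them. For Cd274 empty droplets held 122 and 139.9 CPM in the MRL/lpr libraries. Free RNA was estimated at 14.3% and 27% of mesangial UMIs there, against 4.29% in control. The 10 endothelial markers summed to 1720, 3718 and 3113 CPM in the same cells, with Kdr at 76.3, 338 and 161 CPM, and the macrophage marker Lyz2 was at 1.1, 90.2 and 557 CPM. Their part in the Cd274 ratio was not tested. Lgals9 was at 192, 163 and 136 CPM, with ratios of -0.24 (-0.33 to -0.15) and -0.25 (-0.35 to -0.15). Most control and untreated cells lay in cluster 16 (623 and 596, with 22 treated) and most treated cells in clusters 15 and 18 (2049 and 756). Treated over untreated, Lgals9 was -0.43 (-0.65 to -0.21), -0.11 (-0.49 to 0.24) and 0.28 (-0.39 to 1.04) within clusters 15, 16 and 18. Cd274 of untreated over control mice was 1.71 (0.71 to 2.94) and 2.82 (2.56 to 3.09) within clusters 15 and 16.

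Interferon gamma raises PD-L1 through IRF1, and Cxcl10 is another target of this pathway. Endothelial-like cells with a Cxcl10 UMI had more Cd274 than those without in thinned counts of both MRL/lpr libraries. In control mice the interval held 0. The log2 ratios were 0.53 (-0.11 to 1.12) in control, 0.67 (0.35 to 0.97) in untreated and 1.30 (0.90 to 1.69) in treated mice. The corresponding ratios for cells with an Irf1 UMI were 1.06 (0.62 to 1.51), 0.42 (0.15 to 0.68) and 0.60 (0.31 to 0.89). For Lgals9 by Cxcl10 all 3 intervals held 0 (0.25, 0.29 and -0.33). These ratios compare cells within a library and were not split by cluster, although Cd274 differed between clusters.

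Between libraries the ratios of the pathway in endothelial-like cells stand beside those of Cd274. Between untreated and control mice 1 of 9 was 2-fold or more higher (Cxcl9, 2.45) and none lower, where 16.7% of all genes were 2-fold apart, with Cxcl10 at 0.51 and Irf1 at -0.33. Treated over untreated mice 1 of the 9 was 2-fold or more higher and 2 were lower, where 11.0% of all genes were 2-fold apart. The median log2 ratio over the 9 was -0.33, beside 0.15 over all genes. Irf1 was -1.99 (1505 and 381 CPM), Cxcl10 -1.86 (509 and 140.1 CPM) and Cxcl9 1.03, beside -0.14 for Cd274. That ratio of Cd274 had the opposite sign to those within each endothelial cluster. The pathway genes are given for the class only.

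Myeloid cells carried the highest levels of Cd274. Among the classes compared it was highest in neutrophil-like cells, at 539 (399 to 713), 628 (581 to 677) and 585 (531 to 644) CPM. Phagocyte-like cells followed with 312 CPM in control (205 UMIs), 344 in untreated (4041 UMIs) and 361 in treated mice (7292 UMIs). The phagocyte log2 ratios were 0.14 (-0.06 to 0.35) and 0.07 (0.01 to 0.13), but within clusters, described below, Cd274 differed more. In cells thinned to 500 UMIs and without a Cxcl10 UMI (143, 2553 and 8098 cells), Cd274 was at 462, 387 and 354 CPM. The order of the libraries over the class thus turned when each cell had the same weight. Pdcd1lg2 was at 36.5, 57.7 and 68.6 CPM, with ratios of 0.66 (0.08 to 1.31) and 0.25 (0.12 to 0.38).

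TIM-3 and galectin-9 were lower over all phagocyte-like cells of untreated than of control mice. Havcr2 was at 175 CPM (115 UMIs) in control, 85.5 (1005 UMIs) in untreated and 66.3 (1340 UMIs) in treated mice, with log2 ratios of -1.03 (-1.31 to -0.74) and -0.37 (-0.49 to -0.25). Its thinned shares were 11.0%, 4.04% and 2.93%, and unthinned 40.7%, 27.2% and 12.9% at medians of 3693, 3895 and 1579 UMIs. Lgals9 was at 88.2, 49.2 and 63.6 CPM, with ratios of -0.84 (-1.23 to -0.43) and 0.37 (0.23 to 0.51), all below empty droplets (121, 86.8 and 109 CPM). The control class was small, and plasma cell markers summed to 3329 CPM in it, against 4.00 and 93.0 in the MRL/lpr libraries. In the cluster marked by Clec4e, which held 90 of the 145 control cells, the untreated over control ratio was -0.40 (-0.78 to 0.01) for Havcr2 and -1.43 (-2.02 to -0.79) for Lgals9. In the cluster marked by Trem2, with 22 control cells, it was -1.05 (-1.93 to -0.10) and 0.01 (-1.08 to 1.30). The C1q-rich cluster held 6 control and 581 untreated cells, too few control cells for a ratio.

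Between untreated and control phagocyte-like cells 4 of 7 genes were 2-fold or more apart (Ctla4, Havcr2 and Tnfrsf9 lower, Lag3 higher), where 23.3% of all genes were. Apart from Havcr2 these rested on 10, 3 and 1 control UMIs of Ctla4, Tnfrsf9 and Lag3. Between treated and untreated mice 1 of 9 was (Icos, from 14 and 60 UMIs), where 13.6% of all genes were. Its levels of 1.19 and 2.97 CPM were below empty droplets (8.68 and 6.4 CPM), and its sign turned at 1000 UMIs (-0.19), at 200 to 3000 genes (-0.16) and under the gate on marker UMIs (-1.31).

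Phagocyte clusters differed in ligand level. A cluster marked by Clec4e and Cd300e (90, 1266 and 2067 cells) had the highest Cd274, at 436, 562 and 644 CPM, with log2 ratios of 0.37 (0.13 to 0.61) for untreated over control and 0.20 (0.13 to 0.27) for treated over untreated mice. In it Pdcd1lg2 was at 54.5, 95.3 and 122 CPM and Havcr2 at 172, 131 and 113 CPM. A cluster marked by Ly6c2 and Ccr2, genes of classical monocytes, had 184 and 290 CPM of Cd274 in untreated and treated mice (334 and 1051 cells; 0.65, 0.48 to 0.83). C1q-rich macrophage-like cells (581 and 616 cells) had 164 and 175 CPM (0.09, -0.07 to 0.25). A shallow cluster marked by H2-Eb1, Mmp12 and Trem2, with a median of 898 UMIs, had 125 and 204 CPM (0.71, 0.38 to 1.07) and held 4065 of the 8299 treated but 338 of the 2597 untreated cells. Its score was higher for plasma cell (2.53) than for macrophage markers (1.06), and like endothelial cluster 13 (1.46 and 1.23 for its own class) it was named only by the rule set after the clusters were seen. In the remaining cluster Cd274 was 415 and 410 CPM (-0.02, -0.40 to 0.38).

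Havcr2 was lower in treated than in untreated mice in 2 of these 5 clusters with an interval below 0, the Clec4e cluster (-0.22, -0.37 to -0.06) and the Trem2 cluster (-0.69, -1.17 to -0.19). Pdcd1lg2 was higher in treated mice with an interval above 0 in 3, the Clec4e, Ly6c2 and C1q clusters (0.36, 0.61 and 0.60).

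**Figure D5:**
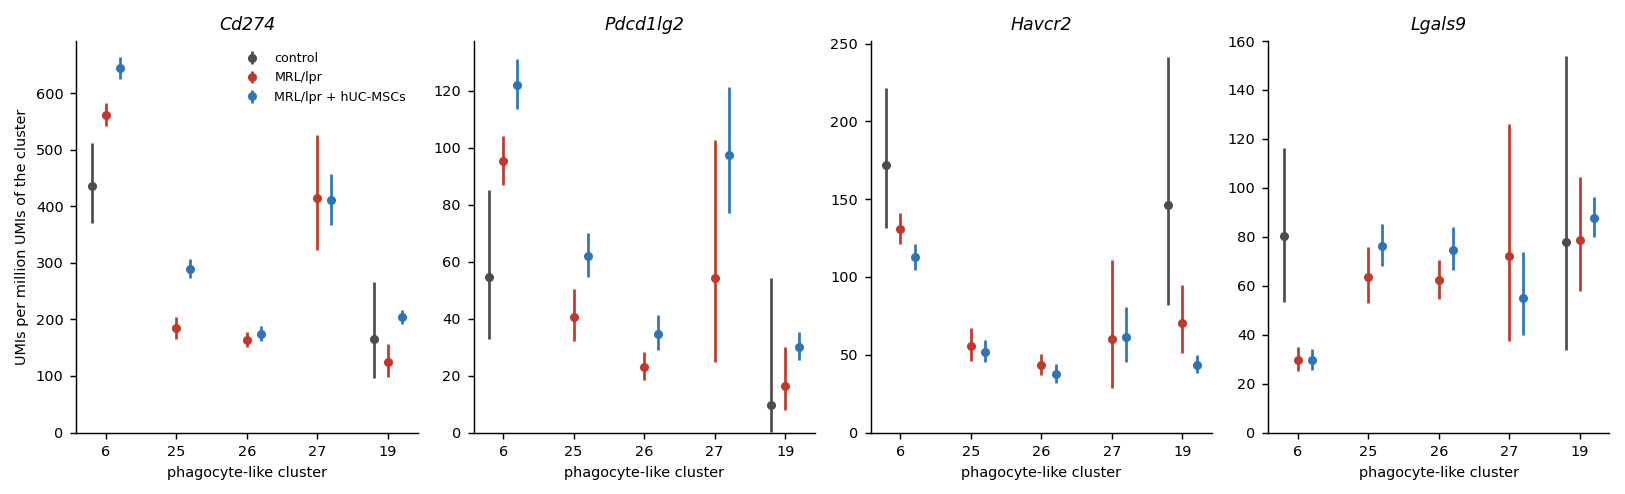
Levels of Cd274, Pdcd1lg2, Havcr2 and Lgals9 (CPM of the cluster) in the phagocyte-like clusters marked by Clec4e (6), Ly6c2 (25), C1q genes (26), Rap1gap2 (27) and Trem2 (19), with 95% counting intervals and at least 20 cells of a library; scales differ between panels. Cd274 is highest in cluster 6 (436, 562 and 644) and Lgals9 lowest there in MRL/lpr mice (29.8 and 29.5).

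Genes that pair with these receptors and other checkpoint genes give the setting. Their lists were chosen with earlier results of these data known. In T cell-like cells treated over untreated, 5 of 14 other checkpoint and costimulation genes were 2-fold or more higher and none lower (median 0.54, beside -0.18 over all genes, of which 12.9% were 2-fold apart, 306 higher and 982 lower). The 5 were Tnfrsf4 (OX40, 85.7 and 184 CPM, 1.1) and its ligand gene Tnfsf4 (1.42), Cd40lg (27.8 and 72.9 CPM, 1.39), Cd40 (1.12, -0.26 to 2.59) and Cd200 (1). The group marked by Tnfrsf4, Icos and Cd40lg held 54 of 933 untreated and 186 of 692 treated cells. Its part in these ratios was not tested. Of 10 partner genes 2 were higher and 1 lower, with Cd226, which shares ligands with Tigit, at 11.8 and 42.1 CPM (1.84) and Cd80 at -1.14. Of 19 T cell state genes 3 were higher, among them Entpd1 (CD39; 58.4 and 140.0 CPM, 1.26), and 2 were lower, Tcf7 (162 and 45.0 CPM, -1.85) and Cxcr5 (-1.86). Tox, a regulator linked to sustained checkpoint expression, was 279 and 371 CPM (0.41, 0.24 to 0.59).

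Untreated over control T cell-like cells, 3 of 12 other checkpoint genes were 2-fold or more higher and 2 lower, with a median of 0.10, and 1 of 8 partner genes was higher and 1 lower, where 20.1% of all genes were 2-fold apart. Cd226 was 76.3 CPM in control and 11.8 in untreated mice (-2.70), and Ifng 113 and 239 CPM (1.08). In endothelial-like cells 3 of 10 partner genes were higher and 2 lower between untreated and control mice, where 16.7% of all genes were 2-fold apart. Icosl, the ligand gene of Icos, was 5.46 and 14.2 CPM (1.38), Tnfsf9, the ligand gene of Tnfrsf9, 94.4 and 41.6 CPM (-1.18), and Ceacam1 78.2 and 21.9 CPM (-1.84). Tnfsf9 was lower again in treated mice, at 12.8 CPM (-1.70, -1.91 to -1.50).

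Over 29 profiles of a class in a library, the levels of the 9 members with at least 100 UMIs were set beside other genes. Those came from the 16050 genes that also had at least 100 UMIs. Pdcd1 was most alike to Cd6 (Pearson r = 0.968), Cxcr6 and Cxcr3, Icos to Cxcr6 (0.968), Ctla4 to BE692007 (0.960) and Slamf6, and Tnfrsf9 to Nkg7 (0.962). Havcr2 was most alike to Tnip3 (0.957) and Smpdl3b, Pdcd1lg2 to Arhgap30 (0.973) and Il10ra, Cd274 to Abca7 (0.933) and Vsir (0.929), and Lgals9 to Fli1 (0.903). The profiles share libraries and depth, so these values describe where genes are seen and carry no test.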

How the data were processed

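The counts are those deposited by the authors, UMI counts per gene and barcode of 3 unfiltered libraries. The submitters' processing notes name Cell Ranger, STAR and mm10; the file headers carry Cell Ranger format 4, and the methods state another version. Library totals were 94903163 UMIs in control, 103319588 in untreated and 90812138 in treated mice, which sets the counting error of each level.

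Barcodes with at least 500 UMIs and at most 10% mitochondrial UMIs were kept. The methods' limit of 5% ribosomal UMIs was not used, since medians were 8.42%, 11.2% and 12.8%. The 6.4% of barcodes with the highest Scrublet score (scanpy 1.11.5) were removed in each library in place of DoubletFinder. Counts were scaled to 10000, and 2000 variable genes, 10 principal components, 15 neighbours and Leiden clustering (igraph 0.11.9, resolution 1.0) gave clusters. A cluster took the name of the highest-scoring class among those with 3 markers in 10% of its cells and 2-fold higher; this rule was set after the clusters were seen. Lymphocyte clusters were split again.

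Ratios, intervals (Clopper-Pearson for shares) and thinning to 500 UMIs used Python 3.11.15 with numpy 2.4.6, scipy 1.17.1, pandas 2.3.3, scikit-learn 1.9.0 and matplotlib 3.10.9. Only the ratios and their intervals were tested on simulated data, which were Poisson counts and so held counting error alone. The members and lists were chosen with earlier results of these data known. Named genes are the 10 members, genes of 4 lists with at least 20 UMIs, the markers and the 5 most alike genes. The values of 1 gene of the interferon list are not reported here. The alternatives were 1000 UMIs, 200 to 3000 genes, no doublet removal, resolution 2.0, a gate on marker UMIs, free RNA subtracted, ratios centred on the median gene, and, added after seeing the data, a stricter naming rule and T cell-like cells without myeloid markers. CellChat and DESeq2 on cells were not used, since cells are not replicates.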

Additional observations from a re-analysis of the deposited data

Results flagged for a closer look

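Ratios of at least 1.5-fold whose counting intervals lay on opposite sides of 0 in different classes were noted. With 1 library per condition the difference between classes was not tested. Between untreated MRL/lpr and control mice the log2 ratio of Ctla4 was 0.89 in T cell-like, 1.81 in endothelial-like and 1.83 in mesangial-like cells but -2.78 in phagocyte-like cells. Outside T cell-like cells it rested on 14 and 31, 7 and 17, and 10 and 26 UMIs in control and untreated mice, below the empty-droplet level in endothelial-like and mesangial-like cells and, in untreated mice (2.21 against 8.33 CPM), in phagocyte-like cells. The ratio of Lag3 was 0.78 in T cell-like and -1.70 in endothelial-like cells, from 17 and 134 and from 108 and 21 UMIs. For Havcr2 it was 2.43 in mesangial-like cells, from 6 and 22 UMIs (0.44 and 2.37 CPM, below empty droplets at 2.64 and 13.2), and -1.03 in phagocyte-like cells, from 115 and 1005 UMIs. Between treated and untreated mice the ratio of Tnfrsf9 was 0.89 in T cell-like, 1.17 in NK cell-like and 0.95 in endothelial-like cells (0.88 and 1.71 CPM) but -0.93 in mesangial-like cells, where 28 untreated and 21 treated UMIs gave 3.02 and 1.59 CPM, and in both of the last classes it was below empty droplets (5.55 and 3.84 CPM).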

How the results depend on the processing

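Over all T cell-like cells Pdcd1 in treated over untreated mice kept its direction under every setting run (0.56 to 0.81). In those with Cd8 and without Cd4 UMIs it was not higher in treated mice. There it was at 76.0 CPM in untreated (54.5 to 103) and 62.2 in treated mice (34.8 to 103). The ratio of Cd274 in endothelial-like cells of untreated over control mice was 1.73 and moved only to 1.62 with barcodes of at least 1000 UMIs. Treated over untreated it was -0.14 and turned to 0.05 without doublet removal and to 0.03 under the stricter naming rule, with -0.06 under the marker gate and -0.29 centred on the median gene. Havcr2 in phagocyte-like cells of treated over untreated mice (-0.37) was -0.20 at 1000 UMIs, -0.23 under the gate and -0.22 under stricter naming. Lgals9 there (0.37) was 0.18, 0.14 without doublet removal, 0.19 under the gate, 0.21 under stricter naming and 0.07 with free RNA subtracted. The 7 receptors summed to 736 CPM in untreated T cell-like cells, and to 563 at 1000 UMIs, 601 at 200 to 3000 genes, 455 without doublet removal and 809 under the gate. Genes 2-fold apart between treated and untreated phagocyte-like cells numbered 2011, and 1156, 1235, 1286, 1116 and 1230 at 1000 UMIs, at 200 to 3000 genes, without doublet removal, under the gate and under stricter naming. Signs turned for Ctla4 in mesangial-like cells, untreated over control (-1 at 200 to 3000 genes), and for Icos, treated over untreated, in phagocyte-like cells (-0.19 at 1000 UMIs, -0.16 at 200 to 3000 genes, -1.31 under the gate) and mesangial-like cells (-0.11 at resolution 2.0). The causes were not tested. No replicate could be left out and no paired analysis was possible because each condition had 1 library, and receptors with under 20 UMIs in a class were not compared.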
